A study of Mus musculus with 12 samples.

Results

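The genes described here are the 7 immunoglobulin heavy chain constant region genes Ighm, Ighd, Igha, Ighg1, Ighg2b, Ighg2c and Ighg3, the kappa light chain constant region gene Igkc, and the plasma cell genes Jchain and Mzb1. They were picked by symbol from the deposited count table, where each matched a single row, and make up 10 of its 56748 genes. RNA was sequenced from whole lung of mice aged 4.5 months that carry the MMTV-PyMT transgene, which puts the polyoma middle T oncogene under the promoter of mouse mammary tumour virus. The series' title puts the question of what a conditional knockout of complement C3 or of S1pr1, a sphingosine-1-phosphate receptor, does to lung metastasis. S1pr1 KO lungs came from MMTV-Cre;S1pr1fl/fl; MMTV-PyMT mice, C3 KO lungs from MMTV-Cre;C3Tdt:MMTV-PyMT mice, and WT lungs from mice described in the series' design as MMTV-Cre; MMTV-PyMT, with 4 libraries in each group. The strain label of the WT samples names only MMTV-PyMT. The Cre named for both knockouts, and in the design text for WT too, is driven by the mammary tumour virus promoter. In which cells of the lung it was active was not tested, and a conditional knockout need not show in RNA of the whole lung. Each lung carries the label of lung metastasis, and no label states that a group's samples are different animals, so the tests reflect only the spread among these samples.

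An antibody is built from 2 heavy and 2 light chains, and the constant region of the heavy chain sets its class: mu for IgM, delta for IgD, gamma for the IgG subclasses and alpha for IgA. A resting B cell makes IgM and IgD together from 1 primary transcript and holds them in its membrane, and class switching later replaces the mu constant region with a gamma, epsilon or alpha one. Plasma cells secrete antibody in bulk and hold large amounts of heavy chain, light chain and J chain RNA; in mucosal tissues such as the airway many of them make IgA. In bulk RNA, fewer cells of a type and less RNA per cell cannot be told apart.

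The 7 heavy chain genes lie on the minus strand of chromosome 12 within 113218450 to 113386350 of GRCm39, in the order Ighm, Ighd, Ighg3, Ighg1, Ighg2b, Ighg2c and Igha along the direction of transcription. Ighm (ENSMUSG00000076617) runs from 113382178 to 113386350 and Igha (ENSMUSG00000095079) from 113218450 to 113223856. Igkc (ENSMUSG00000076609) lies on the plus strand of chromosome 6 from 70703419 to 70703950, and Jchain (ENSMUSG00000067149) on the minus strand of chromosome 5 from 88667668 to 88675750.

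The 4 IgG subclass genes are close relatives and differ among other places in the hinge, the short flexible exon between the first and second constant domains, whose cysteines join the 2 heavy chains. The hinge exons are shown because the subclass values below depend on reads being assigned to the right copy. They were read from the GENCODE M21 annotation and genome of GRCm38, another build than that of the counts, and stand 5′ to 3′ on the minus strand with cysteine codons in capitals.
Ighg1, chr12:113329844-113329882: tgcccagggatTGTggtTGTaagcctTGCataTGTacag
Ighg2b, chr12:113307261-113307326: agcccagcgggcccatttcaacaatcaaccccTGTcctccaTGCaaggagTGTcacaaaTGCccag
Ighg2c, chr12:113288263-113288325: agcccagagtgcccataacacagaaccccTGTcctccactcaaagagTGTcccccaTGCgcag
Ighg3, chr12:113360529-113360576: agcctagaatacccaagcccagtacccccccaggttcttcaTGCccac

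The hinge of Ighg2b, with 66 bases and 4 cysteine codons, and that of Ighg2c, with 63 bases and 3, were the most alike, at 77.3% identity. Over coding exons 1 to 4 these 2 genes were 85.6% identical, and the other pairs of subclasses 73.1% to 75.5%. Within these coding exons, Ighg2b and Ighg2c shared 5.85% of the stretches of 50 bases of Ighg2b, all other pairs shared 0%, and no pair shared a stretch of 100 bases. The exons compared hold 971 to 1007 bases per gene. The counted genes are 2592 bases long for Ighg1, 2678 for Ighg2b, 1326 for Ighg2c and 2512 for Ighg3, and the rest of their sequence was not compared. Ighg2a, a gene name used for the same position in some mouse strains, has no row in the table, so reads of an Ighg2a allele could only be counted elsewhere, and this was not tested.

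Total counts per library lay between 32274797 and 53063470, and the 10 genes took 0.0246% to 0.0959% of them. The tissue label fits its markers: Sftpc of alveolar type 2 cells lay between 9411 and 12828 CPM (counts relative to the scaled library total), Ager of alveolar type 1 cells between 1698 and 2374 CPM and Cldn5 of endothelium between 380 and 691 CPM. The library labelled S1pr1 KO 2 had 366 CPM of S1pr1 and the other S1pr1 KO libraries 132 to 154 CPM, against 295 to 491 CPM in WT. The library labelled C3 KO 4 had 1416 CPM of C3 and the other C3 KO libraries 465 to 601 CPM, against 787 to 1025 CPM in WT. S1pr1 differed between S1pr1 KO and WT by -0.85 log2 (SE 0.29, edgeR adjusted p = 0.153), and by -1.33 without S1pr1 KO 2. C3 differed between C3 KO and WT by -0.25 log2 (SE 0.30, edgeR adjusted p = 0.813), and by -0.77 without C3 KO 4. Of the 12 fits that left out 1 library, 1 gave S1pr1 and 1 gave C3 an edgeR adjusted p under 0.05 in these comparisons. The libraries S1pr1 KO 2 and C3 KO 4 stood above the rest of their groups and are called the 2 doubted libraries here, so some results are also given without them. Loss of either gene need not show in whole lung, and whether the labels are right was not tested. Markers of lymph node stroma and high endothelial venules summed to 416 to 507 CPM in S1pr1 KO, 291 to 360 CPM in C3 KO and 346 to 398 CPM in WT. Of the 7 tested, 5 had higher point estimates in S1pr1 KO than in WT (median 0.30 log2) and 4 in C3 KO than in WT (median 0.03 log2), and none passed by edgeR. At an unadjusted edgeR p under 0.05 there were 3 in S1pr1 KO and 0 in C3 KO, against 18% and 11% of all genes tested. Among them Glycam1 had 3 to 63 counts in S1pr1 KO, 1 to 22 in C3 KO and 0 to 8 in WT, and Madcam1 at most 3 in any library. Thymocyte markers summed to 38.7 to 48.7 CPM in S1pr1 KO, 31.5 to 66.5 CPM in C3 KO and 32.8 to 53.7 CPM in WT, with Ptcra and Rag2 at no more than 2 counts. The part of these markers in the antibody gene values was not tested.

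Per length of gene, Igkc stood highest and Ighm next. The deposited FPKM (fragments relative to gene length and library total) had a median over the 12 libraries of 198 for Igkc (range 108 to 508) and 94.0 for Ighm (41.8 to 179). Igha followed at 23.7 FPKM (9.47 to 43.8), Ighd at 17.4 FPKM (2.90 to 28.1) and Jchain, the joining chain that links IgM and IgA into polymers, at 9.95 FPKM (2.89 to 30.8). The IgG subclasses had medians of 4.197 FPKM for Ighg2c, 3.43 FPKM for Ighg2b, 1.53 FPKM for Ighg3 and 0.762 FPKM for Ighg1. Mzb1, an endoplasmic reticulum protein that helps assemble IgM, had a median of 1.63 FPKM (1.11 to 2.30). Mzb1 thus stood between Ighg2b and Ighg3, and the ranges over libraries of each pair of neighbours in this order overlapped. Within each library, Igkc nevertheless stood above Ighm, and Ighm above Igha. Ighe, the constant region of IgE, had 0 to 4 counts per library.

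None of the 10 genes passed the test in S1pr1 KO against WT (edgeR quasi-likelihood test, Benjamini-Hochberg adjusted p under 0.05 over all 20229 genes tested, where 1.35% passed). The counts of passing members were likewise 0 by DESeq2, by limma-voom with quality weights and by limma on log2(FPKM + 1) or log2(FPKM + 0.1), and at an unadjusted edgeR p under 0.05 there were 2, Ighm and Ighd, where 18% of all genes tested stood under that value. DESeq2 gave Ighg3 no adjusted p in any of the 3 comparisons. All 10 genes passed the filter on low counts. All 10 genes had values that overlapped between the groups, while 11.3% of all genes tested did not overlap. Point estimates were lower in S1pr1 KO for 9 of the 10, with a median log2 difference of -0.80, against -0.0011 over all genes tested, of which 50.2% were lower. Without WT 4, the count was 6 of 10 and the median -0.08. Over the 12 fits that each left out 1 library, the count was 6 to 10 and the median -1.01 to -0.08.

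None passed in C3 KO against WT either, where 0.00989% of all genes passed and 6.09% had groups that did not overlap; the 10 genes overlapped throughout. No member had an unadjusted p under 0.05, against 11% of all genes, and no other tool called one. The point estimates were lower in C3 KO for 3 of the 10, with a median log2 difference of 0.14. Without the 2 doubted libraries they were lower for 6 of 10, with a median of -0.39, without WT 3 for 7 of 10, and without WT 4 for 2 of 10, with a median of 0.52. In S1pr1 KO against C3 KO, 0 members passed by edgeR and by each other tool, 0% of all genes passed by edgeR and 6.4% did not overlap. There, 3 members had an unadjusted p under 0.05, namely Ighd, Ighg2b and Igkc, against 12% of all genes, and all 10 overlapped. The point estimates were lower in S1pr1 KO for 8 of 10, with a median of -0.68 log2. Without C3 KO 4 they were lower for 5 of 10, with a median of -0.0023, and without both doubted libraries for 5 of 10, with a median of 0.036. Without S1pr1 KO 4 the median was -1.20. The comparisons share libraries, so their values are not independent of each other.

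**Figure D1:**
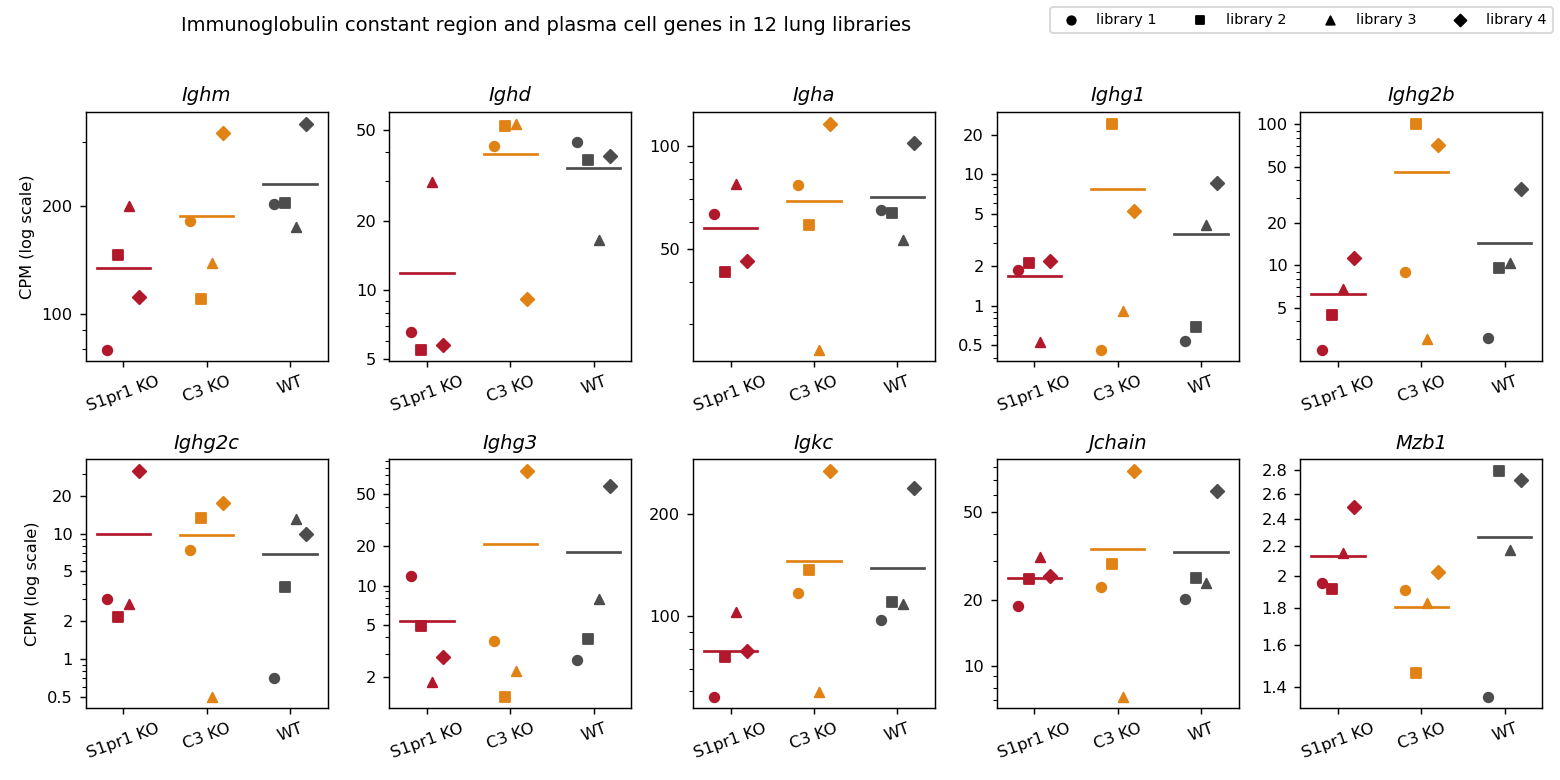
Levels of the 10 genes in each library, in CPM on log axes, with S1pr1 KO at the left, C3 KO in the middle and WT at the right. Each point is 1 library, its shape gives the library number and the line is the group mean. Ighd in S1pr1 KO 1, 2 and 4 sits at 5.51 to 6.59 CPM, below the WT range of 16.5 to 44.4 CPM, and the IgG genes spread widely within each group.

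**Figure D2:**
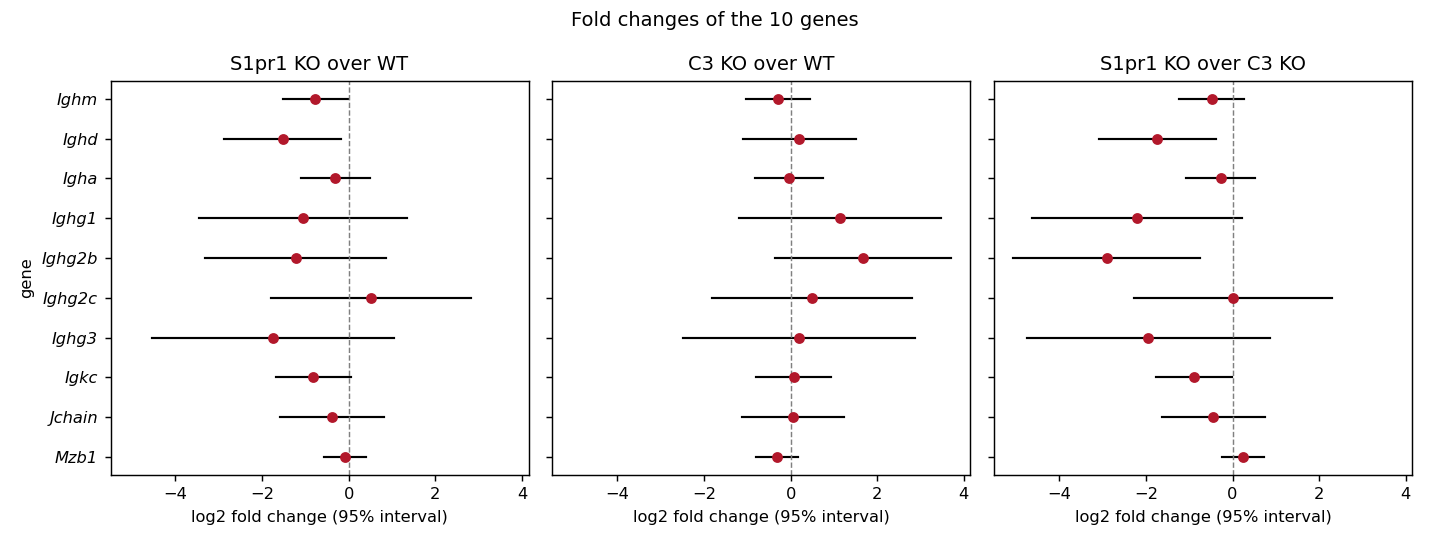
Log2 fold changes of the 10 genes in 3 comparisons, as points with 95% intervals from the edgeR fit, and a dashed line at 0. The intervals of the IgG genes are the widest, and that of Mzb1 the narrowest, from -0.57 to 0.39 in S1pr1 KO over WT.

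Ighm, the constant region of IgM, was at 79.6, 146, 200 and 111 CPM in S1pr1 KO 1 to 4, at 182, 110, 138 and 319 CPM in C3 KO 1 to 4, and at 202, 203, 174 and 338 CPM in WT 1 to 4. Of the S1pr1 KO libraries, number 3 reached the WT range and the other 3 lay under it, while C3 KO spanned from under it to within it. The group means were 134 ± 51.4 CPM in S1pr1 KO, 187 ± 92.6 CPM in C3 KO and 229 ± 73.8 CPM in WT (SD, n = 4 each). Between S1pr1 KO and WT the log2 difference was -0.77 (SE 0.35, edgeR adjusted p = 0.262). C3 KO against WT gave -0.29 (SE 0.34, edgeR adjusted p = 0.810), -0.68 without C3 KO 4 and -0.05 without WT 4.

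Ighd, the constant region of IgD and a mark of naive mature B cells, was at 6.59, 5.51, 29.6 and 5.79 CPM in S1pr1 KO 1 to 4, at 42.5, 52.3, 53.4 and 9.16 CPM in C3 KO 1 to 4, and at 44.4, 36.9, 16.5 and 38.5 CPM in WT 1 to 4. S1pr1 KO 1, 2 and 4 and the library labelled C3 KO 4 lay below all WT libraries, while S1pr1 KO 3 fell inside the range of WT. The log2 difference of S1pr1 KO from WT was -1.53 (SE 0.62, 95% interval -2.87 to -0.19, edgeR adjusted p = 0.215). It was -2.51 without S1pr1 KO 3 and -1.29 without both doubted libraries, and neither passed. Against C3 KO the log2 difference of S1pr1 KO was -1.73 (SE 0.62, edgeR adjusted p = 0.313), and C3 KO differed from WT by 0.21 (SE 0.60, edgeR adjusted p = 0.941), by 0.54 without C3 KO 4 and by -0.019 without WT 3.

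Genes of B cells had low values in the same libraries as Ighd. Cd79a, the alpha chain of the B cell receptor's signalling pair, was at 8.20, 7.60, 26.9 and 8.85 CPM in S1pr1 KO 1 to 4, at 43.4, 43.9, 41.1 and 11.8 CPM in C3 KO 1 to 4, and at 44.5, 37.2, 20.4 and 36.1 CPM in WT 1 to 4. Its log2 difference between S1pr1 KO and WT was -1.43 (SE 0.47, edgeR adjusted p = 0.140). Fcmr, the IgM Fc receptor, gave -1.62 (SE 0.51, edgeR adjusted p = 0.127) in the same comparison. As a description over the 12 libraries, the Pearson r of log2 CPM between Ighd and each of 20 B cell lineage genes had a median of 0.96 and a range of 0.77 to 0.99, and a median of 0.94 after each group's mean was taken off. The same median was 0.29 for Ighm, 0.13 for Igkc, 0.00 for Igha and -0.25 for Jchain. This set of values was computed after the levels had been seen, and all points share their libraries and depth.

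All 20 B cell lineage genes had a lower point estimate in S1pr1 KO than in WT, with a median log2 difference of -1.04, and none passed by edgeR, while 13 had an unadjusted p under 0.05, a value reached by 18% of all genes. Leaving out 1 library at a time, all 20 stayed lower, and the median lay between -1.56 (without S1pr1 KO 3) and -0.85 (without S1pr1 KO 1). Bach2, of lowest p among the 20 in C3 KO against WT, gave 0.25 log2 there (SE 0.20, edgeR adjusted p = 0.691). In C3 KO against WT, 4 of the 20 were lower, with a median of 0.11. That count was 0 without C3 KO 4 (median 0.36) and 15 without WT 3 (median -0.07). Their summed level was 116, 116, 266 and 127 CPM in S1pr1 KO 1 to 4, 365, 388, 395 and 144 CPM in C3 KO 1 to 4, and 387, 327, 186 and 304 CPM in WT 1 to 4. T cell markers were low beside them. All 14 were lower in S1pr1 KO than in WT with a median of -1.04 log2 and 2 passed, where 1.35% of all genes passed. An unadjusted p under 0.05 was reached by 13 of the 14. Their sum was 30.0 to 67.6 CPM in S1pr1 KO, 72.9 to 115 CPM in C3 KO and 63.7 to 109 CPM in WT. All 10 ciliated cell markers were higher in S1pr1 KO than in WT, with sums of 2094 to 2669 CPM in S1pr1 KO, 1753 to 2458 CPM in C3 KO and 1620 to 2220 CPM in WT. Of these 10, 1 passed and 9 had an unadjusted p under 0.05, against 1.35% and 18% of all genes. The part of these cell types in the Ighd values was not tested.

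Igkc, the constant region of most mouse light chains, was at 57.8, 76.0, 103 and 78.8 CPM in S1pr1 KO 1 to 4, at 117, 137, 59.5 and 269 CPM in C3 KO 1 to 4, and at 97.7, 110, 108 and 240 CPM in WT 1 to 4. S1pr1 KO 3 was the only library of its group within the WT range, and C3 KO 4 and WT 4 stood well above the rest. S1pr1 KO differed from WT by a log2 value of -0.82 (SE 0.40, edgeR adjusted p = 0.306), and -0.42 without WT 4. C3 KO differed from WT by 0.07 (SE 0.40, edgeR adjusted p = 0.973), by -0.41 without C3 KO 4 and by 0.47 without WT 4. The lambda constant genes are minor in the mouse: Iglc2 averaged 4.88 ± 2.06 CPM in S1pr1 KO, 8.94 ± 1.76 CPM in C3 KO and 9.24 ± 2.38 CPM in WT (SD, n = 4 each). Its log2 difference of -0.92 between S1pr1 KO and WT (SE 0.29) had an adjusted p of 0.118 by edgeR and of 0.0236 by DESeq2. Iglc3 gave -0.74 in that comparison (SE 0.32, edgeR adjusted p = 0.243) and Iglc1 gave -0.45 in C3 KO against WT (SE 0.43, edgeR adjusted p = 0.756), -0.82 without C3 KO 4 and -0.18 without WT 4. All 3 lambda genes tested had lower point estimates in S1pr1 KO than in WT.

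Igha, the constant region of IgA, was at 63.2, 42.8, 77.3 and 45.8 CPM in S1pr1 KO 1 to 4, at 76.6, 58.5, 25.3 and 116 CPM in C3 KO 1 to 4, and at 64.9, 63.7, 53.01 and 102 CPM in WT 1 to 4. S1pr1 KO 2 and 4 lay just under the WT range, the other two S1pr1 KO libraries lay within it, and C3 KO held both the lowest and the highest value. The log2 difference of S1pr1 KO from WT was -0.31 (SE 0.37, 95% interval -1.10 to 0.49, edgeR adjusted p = 0.718) and that of C3 KO from WT -0.04 (SE 0.37, 95% interval -0.83 to 0.76, edgeR adjusted p = 0.985). Without WT 4 the difference of S1pr1 KO from WT was -0.08, and without S1pr1 KO 3 it was -0.49. C3 KO differed from WT by -0.41 without C3 KO 4 and by 0.25 without C3 KO 3.

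Jchain was at 18.9, 24.97, 31.5 and 25.8 CPM in S1pr1 KO 1 to 4, at 22.8, 29.3, 7.27 and 77.4 CPM in C3 KO 1 to 4, and at 20.3, 25.1, 23.8 and 62.6 CPM in WT 1 to 4. C3 KO 4 and WT 4 were high and C3 KO 3 low, with the other 9 libraries between 18.9 and 31.5 CPM. Its log2 difference between S1pr1 KO and WT was -0.38 (SE 0.55, edgeR adjusted p = 0.771), and 0.13 without WT 4. C3 KO 3, lowest of all for Igha and Jchain, also had red cell markers summing to 24729 CPM, against 961 to 4465 CPM in the other 11 libraries, and neutrophil markers summing to 1404 CPM; their part in its antibody values was not tested. Mzb1 rested on 50 to 103 counts per library and averaged 2.13 ± 0.266 CPM in S1pr1 KO, 1.81 ± 0.242 CPM in C3 KO and 2.26 ± 0.663 CPM in WT (SD, n = 4 each). Its 95% interval for the log2 difference between S1pr1 KO and WT was -0.57 to 0.39 (edgeR adjusted p = 0.886).

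Plasma cell identity and secretion genes other than Jchain and Mzb1 showed no common direction. Of 21 tested, 10 were lower in S1pr1 KO than in WT with a median log2 difference of 0.00, 8 were lower in C3 KO than in WT with a median of 0.04, and 0 passed by edgeR in either comparison, with 2 in S1pr1 KO and 3 in C3 KO at an unadjusted p under 0.05, against 18% of all genes in S1pr1 KO and 11% in C3 KO. Pou2af1, a B cell transcriptional coactivator, gave -1.26 log2 in S1pr1 KO against WT (SE 0.38, edgeR adjusted p = 0.108) and was low in the same libraries as Ighd. Fkbp11, a folding factor of secretory cells, gave 0.35 log2 (SE 0.15, edgeR adjusted p = 0.239). Pdia4, a disulphide isomerase, gave 0.27 log2 in C3 KO against WT (SE 0.09, edgeR adjusted p = 0.349). Sdc1 and Xbp1, well known in plasma cells and also expressed in epithelium, had medians of 274 and 222 CPM, and Tnfrsf17, the plasma cell receptor BCMA, had 1 to 16 counts per library and was not tested. As a description, Pearson r of log2 CPM over the 12 libraries was taken between Jchain and each of the 21 genes. It had a median of 0.053 and a range of -0.516 to 0.806. For Igha the median was 0.072 and the range -0.551 to 0.729. How far the values of this list reflect plasma cells was not tested.

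**Figure D3:**
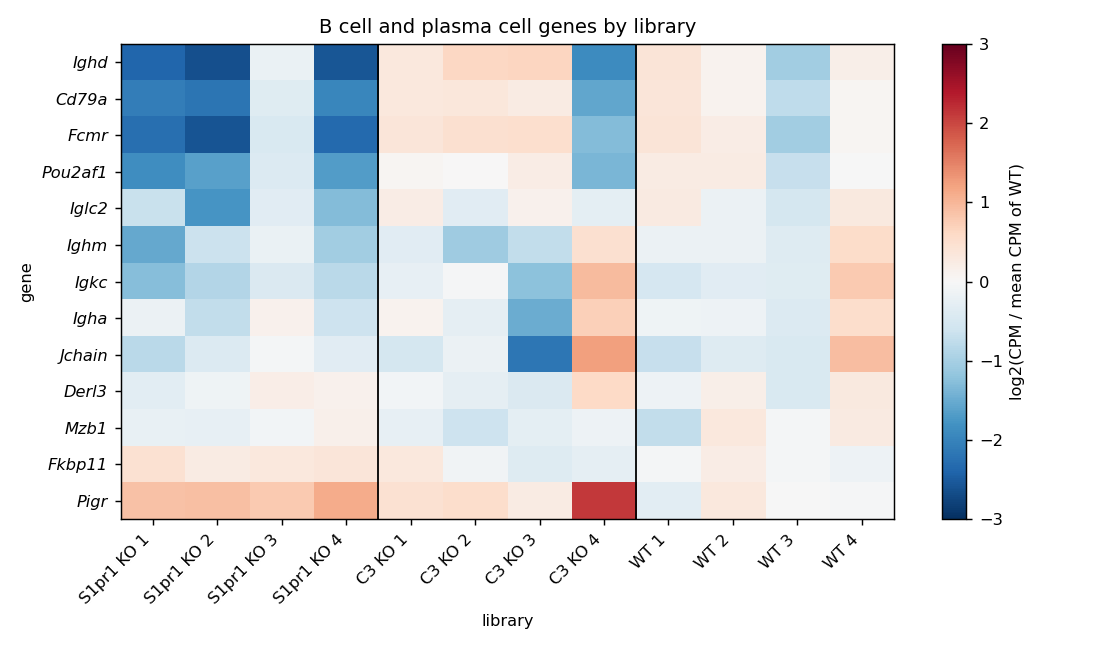
Level of 13 genes in each library as log2 of its CPM over the mean CPM of WT, with S1pr1 KO at the left, C3 KO in the middle and WT at the right. Ighd, Cd79a, Fcmr and Pou2af1 are low in S1pr1 KO 1, 2 and 4 and in C3 KO 4, while Igkc, Igha and Jchain are high in C3 KO 4; Pigr is highest in C3 KO 4.

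Class composition within a library does not depend on how libraries are scaled. Of the counts of the 7 heavy chain genes, Ighm took 58.2% ± 10.3 in S1pr1 KO, 50.2% ± 13.7 in C3 KO and 61.6% ± 2.89 in WT (SD, n = 4 each). Igha took 26.0% ± 7.80 in S1pr1 KO, 17.6% ± 5.24 in C3 KO and 19.1% ± 1.36 in WT, and Ighd took 4.65% ± 3.15 in S1pr1 KO, 13.3% ± 9.19 in C3 KO and 9.47% ± 3.90 in WT. The 4 IgG genes together took 11.1% ± 8.42 in S1pr1 KO, 19.0% ± 17.2 in C3 KO and 9.85% ± 7.48 in WT. The Wilson 95% intervals of single libraries reached at most 1.16 percentage points to either side, for counting error only. Per kilobase of gene, the shares in WT were 66.2% for Ighm and 14.5% for Igha.

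**Figure D4:**
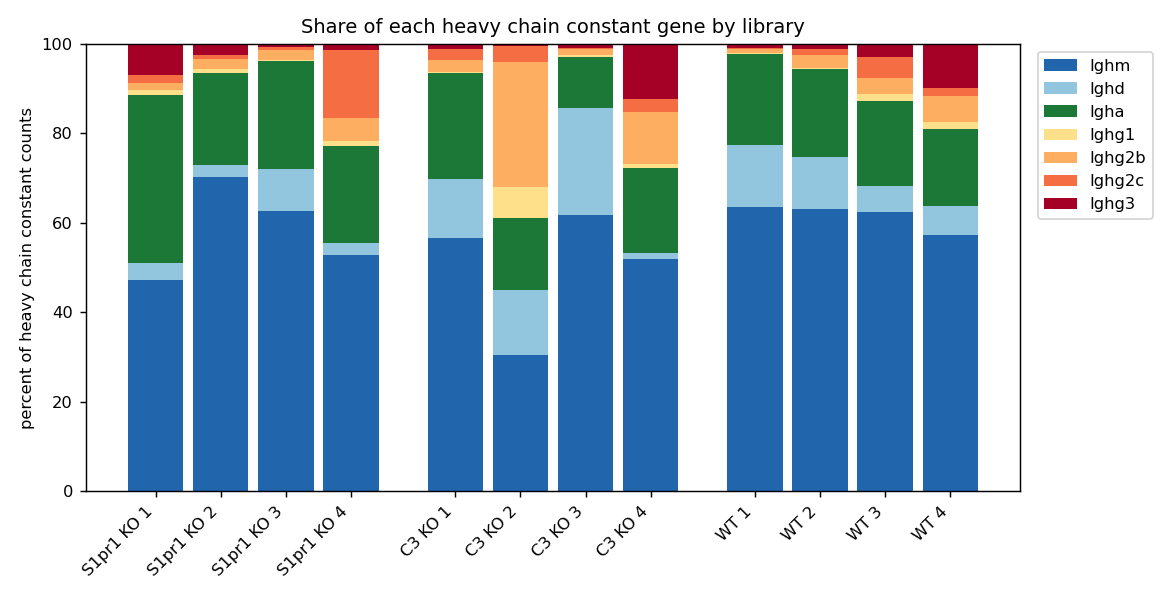
Percent of heavy chain constant region counts taken by each of the 7 genes in each library, with S1pr1 KO at the left, C3 KO in the middle and WT at the right. The 4 IgG genes take 2.96% to 38.8% in C3 KO and 2.19% to 18.9% in WT, and Ighd takes 2.66% to 3.90% in S1pr1 KO 1, 2 and 4.

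Ratios between genes in a library were tested over samples with two-sided exact permutation tests, where 4 against 4 libraries allow a smallest p of 0.0286. For each 100 Ighm counts there were 8.27, 3.79, 14.8 and 5.20 Ighd counts in S1pr1 KO 1 to 4, 23.4, 47.6, 38.6 and 2.87 in C3 KO 1 to 4, and 21.99, 18.2, 9.49 and 11.4 in WT 1 to 4. S1pr1 KO and WT overlapped through S1pr1 KO 3, and the log2 ratio differed by -1.04 (exact permutation p = 0.114, 0.429 adjusted over the 9 ratio tests). Igha counts per 100 Ighm counts were 79.4, 29.4, 38.7 and 41.2 in S1pr1 KO 1 to 4, 42.2, 53.2, 18.3 and 36.5 in C3 KO 1 to 4, and 32.2, 31.4, 30.4 and 30.2 in WT 1 to 4. The WT libraries lay close together, and both knockout groups spread to either side of them. The difference in log2 ratio was 0.50 for S1pr1 KO against WT (exact permutation p = 0.143, adjusted 0.429) and 0.17 for C3 KO against WT (exact permutation p = 0.686, adjusted 0.804). Jchain counts per 100 Ighm counts were 23.7, 17.1, 15.8 and 23.2 in S1pr1 KO 1 to 4, 12.6, 26.6, 5.26 and 24.3 in C3 KO 1 to 4, and 10.1, 12.4, 13.7 and 18.5 in WT 1 to 4. Here S1pr1 KO overlapped only with WT 4, and the log2 ratio differed by 0.56 (exact permutation p = 0.0857, adjusted 0.429). None of the 9 tests passed after adjustment, and the 3 of S1pr1 KO against C3 KO gave differences of -1.42 for Ighd, 0.33 for Igha and 0.45 for Jchain with adjusted exact permutation p-values of 0.514, 0.804 and 0.804. Without C3 KO 4 the Ighd difference from C3 KO was -2.32, and without C3 KO 3 those of Igha and Jchain were 0.015 and -0.035. The Igha difference of S1pr1 KO from WT was 0.22 without S1pr1 KO 1, and that of C3 KO from WT was -0.028 without C3 KO 2 and 0.48 without C3 KO 3.

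The IgG subclasses spread widely between libraries. Over the 12 libraries the highest CPM exceeded the lowest 63.8-fold for Ighg2c, 54.1-fold for Ighg3, 52.4-fold for Ighg1 and 40.2-fold for Ighg2b, against 10.6-fold for Jchain, 9.68-fold for Ighd, 4.61-fold for Igha and 4.25-fold for Ighm. Within S1pr1 KO the span was 4.14-fold for Ighg1 and 4.47-fold for Ighg2b, less than the 5.36-fold of Ighd. Ighg1 rested on 16 to 828 counts per library.

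Ighg2b was at 2.52, 4.40, 6.75 and 11.2 CPM in S1pr1 KO 1 to 4, at 8.88, 101, 2.97 and 71.4 CPM in C3 KO 1 to 4, and at 3.04, 9.52, 10.4 and 34.8 CPM in WT 1 to 4. C3 KO 2 and C3 KO 4 stood above all other libraries, and the groups overlapped. The log2 difference of S1pr1 KO from C3 KO was -2.90 (SE 0.99, 95% interval -5.06 to -0.75, edgeR adjusted p = 0.301), that of S1pr1 KO from WT -1.23 (SE 0.96, edgeR adjusted p = 0.549) while C3 KO against WT gave 1.68 (SE 0.94, edgeR adjusted p = 0.547). Without WT 4 the differences from WT were -0.31 for S1pr1 KO and 2.60 for C3 KO, and without C3 KO 2 that of C3 KO was 0.95.

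Ighg3 was at 11.9, 4.92, 1.83 and 2.85 CPM in S1pr1 KO 1 to 4, at 3.76, 1.41, 2.22 and 76.1 CPM in C3 KO 1 to 4, and at 2.67, 3.92, 7.88 and 58.3 CPM in WT 1 to 4. C3 KO 4 and WT 4 stood apart from the other 10 libraries. The log2 difference of C3 KO from WT was 0.20 (SE 1.23, edgeR adjusted p = 0.975), -2.88 without C3 KO 4 and 2.12 without WT 4, so single libraries set its direction. Likewise the difference of S1pr1 KO from WT was -1.74 (SE 1.29, edgeR adjusted p = 0.522), and 0.18 without WT 4.

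Ighg2c was at 3.03, 2.16, 2.74 and 31.9 CPM in S1pr1 KO 1 to 4, at 7.40, 13.3, 0.50 and 17.7 CPM in C3 KO 1 to 4, and at 0.70, 3.76, 13.2 and 9.98 CPM in WT 1 to 4. S1pr1 KO 4 was the highest of all, and the other 3 of its group lay within the WT range. For S1pr1 KO against WT the log2 difference was 0.52 (SE 1.06, edgeR adjusted p = 0.847), -1.38 without S1pr1 KO 4 and 1.04 without WT 3. Ighg1 was at 1.86, 2.11, 0.53 and 2.20 CPM in S1pr1 KO 1 to 4, at 0.46, 24.2, 0.92 and 5.22 CPM in C3 KO 1 to 4, and at 0.54, 0.69, 4.13 and 8.61 CPM in WT 1 to 4. C3 KO 2 was the highest, and the log2 difference of C3 KO from WT was 1.15 (SE 1.07, edgeR adjusted p = 0.750), -0.64 without it and 2.12 without WT 4.

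Ighg2b led the IgG counts in 6 libraries, Ighg3 in 4 and Ighg2c in 2. Per length of gene, in FPKM, Ighg2b led in 5, Ighg3 in 4 and Ighg2c in 3, since in C3 KO 1 the shorter Ighg2c then stood highest at 5.56 FPKM. The strongest lead was that of Ighg2b in C3 KO 2, with 72.2% of 4784 IgG counts, followed by Ighg2c in S1pr1 KO 4 with 66.2% of 1623 and Ighg3 in S1pr1 KO 1 with 61.6% of 1018. Both WT 4 and C3 KO 4, the libraries with the most Igkc, Jchain and Ighm, were led by Ighg3, at 44.6% of 6657 IgG counts in C3 KO 4 and 52.2% of 4074 in WT 4. In C3 KO 4 Ighg2b followed closely with 41.9%. Every group thus held libraries led by at least 2 different subclasses, and the hinge exons above show how the subclass genes differ in sequence at the hinge only.

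Across the 12 libraries, log2 CPM of Jchain and Igkc had a Pearson r of 0.87, Jchain and Igha 0.87, Igkc and Ighm 0.80, and Igkc and Igha 0.80. Ighd stood aside from its class neighbours, with r between -0.34 and 0.30 to the other 9 genes. Mzb1 also stood apart, with r between -0.23 and 0.41 to the other 9 genes. These are descriptions over libraries that share 3 groups. Among 14243 other protein coding genes with a mean of at least 1 CPM, the 5 of highest r to each of Ighm, Igha and Jchain are named. They were picked for that r, so its height is partly a result of the choice. The second value leaves out the 2 libraries farthest from the median of Ighm, Igha or Jchain. Most like Ighm were Zcchc2 (r = 0.91, then 0.85), Cdc42se1 (0.86, 0.79), Cd80 (0.85, 0.81), Enox1 (0.83, 0.79) and Aplf (0.83, 0.78). For Igha they were Pdk3 (r = 0.82, then 0.46), Enox1 (0.81, 0.75), Abcc10 (0.80, 0.61), Zbtb32 (0.80, 0.49) and Aplf (0.79, 0.70). For Jchain they were Neurl1a (r = 0.91, then 0.73), Cd207 (0.84, 0.33), Neu2 (0.81, 0.45), Polr3g (0.81, 0.72) and Derl3 (0.81, 0.63), the last a protein of endoplasmic reticulum quality control.

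Antibody transport was represented by Pigr, the epithelial receptor that carries polymeric IgA and IgM into secretions. Its level was 69.1, 69.8, 64.4 and 80.7 CPM in S1pr1 KO 1 to 4, 51.8, 54.4, 44.1 and 162 CPM in C3 KO 1 to 4, and 30.0, 46.3, 37.2 and 36.5 CPM in WT 1 to 4. All S1pr1 KO libraries lay above all WT libraries, where 11.3% of all genes tested had groups that did not overlap. C3 KO 3 lay within the WT range. S1pr1 KO against WT gave a log2 difference of 0.92 (SE 0.34, edgeR adjusted p = 0.182). Without C3 KO 4, which is in neither of these groups, the same difference of 0.92 passed with an edgeR adjusted p of 0.00513. In that fit 571 of all genes passed, against 274 with all libraries. Of the 12 fits that left out 1 library, Pigr passed in this comparison only in that 1. C3 KO differed from WT by 1.06 (SE 0.34, edgeR adjusted p = 0.336), and by 0.42 without C3 KO 4 (SE 0.13, edgeR adjusted p = 0.323). Of the 10 transport and Fc receptor genes tested, 5 were lower in S1pr1 KO than in WT, with a median of -0.02 log2, and 4 were lower in C3 KO than in WT, with a median of 0.12. Fcgr4, an activating IgG receptor of myeloid cells, gave -0.58 log2 in S1pr1 KO against WT (SE 0.28, edgeR adjusted p = 0.295). No gene of this set passed in the fit of all 12 libraries. An unadjusted p under 0.05 was reached by 1 in S1pr1 KO and 3 in C3 KO, against 18% and 11% of all genes.

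Class switching and germinal centre genes had 6 of 12 lower in S1pr1 KO than in WT, with a median of -0.01 log2, and 6 of 12 lower in C3 KO than in WT, with a median of 0.03. None passed by edgeR in either comparison. At an unadjusted p under 0.05 there were 5 in S1pr1 KO and 3 in C3 KO, against 18% and 11% of all genes. The lowest adjusted p belonged to Bcl6, the germinal centre repressor that other cells also express, at -0.46 log2 in S1pr1 KO against WT (SE 0.13, edgeR adjusted p = 0.0852, and 0.0226 by DESeq2). Apex1, a base excision repair endonuclease, gave 0.44 log2 (SE 0.13, edgeR adjusted p = 0.111, and 0.0400 by DESeq2). Hmces, which shields abasic sites in DNA, gave -0.26 log2 in C3 KO against WT (SE 0.09, edgeR adjusted p = 0.351). Of 17 homing and survival genes, 11 were lower in S1pr1 KO than in WT, with a median of -0.15 log2, and 5 were lower in C3 KO than in WT, with a median of 0.20. None of these passed by edgeR. Of the 17, 8 in S1pr1 KO and 1 in C3 KO had an unadjusted p under 0.05, against 18% and 11% of all genes. Ccl28, a mucosal chemokine for IgA-secreting cells, averaged 1.199 ± 0.404 CPM in S1pr1 KO and 0.429 ± 0.181 CPM in WT (SD, n = 4 each), a log2 difference of 1.47 (SE 0.44) with an adjusted p of 0.105 by edgeR and 0.0293 by DESeq2. Tnfsf13b, the B cell survival factor BAFF, gave 0.23 log2 in S1pr1 KO against WT (SE 0.07, edgeR adjusted p = 0.119). Ccl28 rested on only 9 to 86 counts per library. In C3 KO, Ccl28 averaged 0.931 ± 0.499 CPM, a log2 difference from WT of 1.10 (SE 0.44, edgeR adjusted p = 0.402). Both Ccl28 and Tnfsf13b had higher point estimates in S1pr1 KO than in WT, unlike most of the 17 genes.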

How the data were processed

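RNA was extracted with QIAzol from whole lung kept in RNAlater, and libraries were made by a commercial provider, per the labels' protocols. The deposited counts are whole-number reads per gene, and the deposited FPKM values give the same libraries per kilobase of listed gene length and library total. The submitters' processing notes name CASAVA, STAR and the builds GRCm39 and mm39, with no versions. How reads were counted, with which strand setting and annotation, is not given in the sources used here. Close copies and overlapping genes may therefore share reads. Replicate numbers follow accession order and only name libraries. Nothing in the labels gives a batch. Libraries of a group differed by a chi-square per degree of freedom of at least 13.4, so none were merged.

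Counts were tested with edgeR 4.0.16 (R 4.3.3) after filterByExpr, which kept 20229 of 56748 genes, and TMM scaling, with all 12 libraries and a mean per genotype in 1 quasi-likelihood fit (9 residual degrees of freedom). Benjamini-Hochberg adjustment covered all genes tested, at a threshold of 0.05, and SEs were back-calculated from the F statistic. CPM are relative to the TMM-scaled total, and log2 CPM for likeness used a prior count of 2. Ratios used a pseudocount of 0.5 and exact permutation tests. The code was tested on simulated data. Alternatives were DESeq2 1.42.0, limma-voom and limma (3.58.1) on log2 FPKM, other scalings and filters, fits of 2 groups, and leaving out libraries. Hinge exons came from GENCODE M21 on GRCm38, and no coordinate was carried between builds. The members and gene lists were chosen with earlier results of these data known. Besides the members and both targeted genes, the named genes were, for each list of antibody and B cell genes, the 2 of lowest p in S1pr1 KO against WT and the 1 of lowest p in C3 KO against WT, and the 5 genes most like each of Ighm, Igha and Jchain; any others were named after their values were seen.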

Additional observations from a re-analysis of the deposited data

Results flagged for a closer look

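Within the groups of 4 libraries, 8 values stood far from the other 3, out of 57 groups of values examined. Gene levels were examined as CPM without logs, and only ratios between genes as log2. The cutoff flags about 1 in 20 groups where values are independent and normally spread. These groups share libraries and counts, so 8 of 57 cannot be set against that rate. Each of the 8 values was the highest of its group. Ighd was at 29.6 CPM in S1pr1 KO 3 and Ighg2c at 31.9 CPM in S1pr1 KO 4. Ighg3 was at 76.1 CPM in C3 KO 4 and at 58.3 CPM in WT 4. WT 4 also stood apart for Igkc at 240 CPM and for Jchain at 62.6 CPM. Of the targeted genes, S1pr1 reached 366 CPM in S1pr1 KO 2 and C3 reached 1416 CPM in C3 KO 4, each in the group labelled as the knockout of that gene.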

How the results depend on the processing

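No member passed in any comparison under any alternative run, with Ighg3 given no adjusted p by DESeq2. No paired analysis was possible because the labels give no replicate numbers shared between groups. Counts of all genes passing moved with the tool. For S1pr1 KO against WT they were 274 by edgeR, 1223 by DESeq2, 928 by voom, 171 and 150 by limma on log2(FPKM + 1) and log2(FPKM + 0.1), 473 without both doubted libraries, and 2 (without S1pr1 KO 4) to 571 (without C3 KO 4) leaving out 1 library, where each WT and S1pr1 KO library lowered the count over 1.5-fold. For C3 KO against WT they were 2 by edgeR and then 155, 21, 6, 6, 31 and 1 to 32 (without C3 KO 4) in the same order, and 1 with only these groups fitted. For S1pr1 KO against C3 KO they were 0 by edgeR and then 295, 36, 7, 6, 3 and 0 to 13 (without C3 KO 1), and 15 with no filter. Members lower in C3 KO than in WT numbered 6 by voom, on both FPKM scales and without both doubted libraries, and 2 to 7 leaving out 1 library; members lower in S1pr1 KO than in C3 KO numbered 5 without both and 5 to 9.

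Signs of uncalled log2 differences turned as follows, and the cause was not tested. In C3 KO against WT, by voom, log2(FPKM + 1), log2(FPKM + 0.1) and without both doubted libraries, Ighg3 was -1.34, -0.30, -0.55 and -2.88, Igkc -0.23, -0.026, -0.027 and -0.41, and Jchain -0.51, -0.19, -0.24 and -0.73. Leaving out 1 library gave ranges of -0.019 to 0.54 for Ighd, -0.41 to 0.25 for Igha, -0.64 to 2.12 for Ighg1, -2.88 to 2.12 for Ighg3, -0.41 to 0.47 for Igkc and -0.73 to 0.57 for Jchain. In S1pr1 KO against WT such ranges were -1.38 to 1.04 for Ighg2c, -2.50 to 0.18 for Ighg3, -0.56 to 0.13 for Jchain and -0.27 to 0.034 for Mzb1. In S1pr1 KO against C3 KO, without both doubted libraries, Igha was 0.21, Ighg3 1.18 and Jchain 0.35. There Jchain was 0.24 by voom, and Ighg2c was -0.28 and -0.20 on the FPKM scales. Ranges leaving out 1 library were -0.56 to 0.10 for Igha, -1.88 to 0.48 for Ighg2c, -2.70 to 1.13 for Ighg3, -0.78 to 0.35 for Jchain and -0.029 to 0.67 for C3. Log2 ratios to Ighm in C3 KO against WT ranged from -0.068 to 1.28 for Ighd, -0.028 to 0.48 for Igha and -0.18 to 0.59 for Jchain, which was -0.14 without both; that of Jchain in S1pr1 KO against C3 KO ranged from -0.035 to 0.74. Per kilobase, shares in WT were 66.2% for Ighm and 14.5% for Igha. Low counts limit Ighg1 and Mzb1.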
